A study of Mus musculus with 144 samples.

Results

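Gene expression in the kidneys of CreER control mice was compared between 24 and 6 months of age, across all genes, in the 12 CreER kidney libraries among the 144 libraries of the study. The libraries were chosen by their labels alone and form 4 groups of 3: CreER females and CreER males of 24 months (old), and CreER females and CreER males of 6 months (young). The study, on mice that carry hyaluronan synthase 2 of the naked mole-rat (nmrHAS2), sequenced RNA of 6 frozen tissues, of which only kidney is described here. It also holds 12 nmrHAS2 kidney libraries of the same ages and sexes, which serve here to show where the CreER kidneys differ. CreER is a Cre recombinase joined to part of the oestrogen receptor, which tamoxifen switches on. The labels give the genotype, age, sex and tissue, but not the strain, a tamoxifen schedule or the animal behind each library. P-values therefore measure the spread between these libraries.

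The kidney filters blood in glomeruli and recovers salt, water, glucose, phosphate and amino acids along a tubule whose proximal segment burns mostly fatty acids. Ageing kidneys are known for leucocyte infiltrates, tubular injury, senescent cells and loss of the anti-ageing membrane protein klotho. In mice the proximal tubule is also strongly sex-biased, with many transport and metabolic genes under androgen control.

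Total counts were 43434763 to 46256191 in old females and 20384081 to 27315233 in old males, against 32971397 to 37836494 in young females and 21463656 to 23964481 in young males. Levels are given in CPM, counts scaled to the size of each library by trimmed means. Those of proximal tubule, loop of Henle, podocyte and collecting duct markers fitted the label of kidney in all 12 libraries, with Slc34a1 at 738, 788 and 783 CPM in old females and Umod at 4350.2, 3998 and 4078 CPM. RNAs that lack poly(A) tails took 3.19 to 3.93% of counts in females and at most 0.00048% in males at both ages, so library kind and sex cannot be told apart, while ages are compared within a kind. Single libraries carried transcripts of other tissues: skeletal muscle genes summed to 906 CPM in old male 2 and to at most 83.6 CPM elsewhere, and adrenal cortex genes to 409 CPM in young male 1 and at most 5.20 CPM elsewhere. Heart muscle genes summed to 52.2, 94.0 and 65.6 CPM in young female 1, young female 2 and young male 2, and to at most 8.03 CPM elsewhere. Haemoglobin and other erythroid genes summed to 42.5 to 174 CPM in old females and 6158 to 10460.3 CPM in old males, against 314 to 687 CPM in young females and 1082 to 4560 CPM in young males. The transgene had 0, 3 and 41 counts in old females 1, 2 and 3 and 0 counts in the other 9 CreER kidneys, where 0 allows up to 0.147 CPM (3 counts of the total, counting error only).

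Of 18591 genes tested, 5622 changed with age at an adjusted p below 0.05, which is 30.2% of them, 2749 higher (14.8%) and 2873 lower (15.5%) at 24 months. Among these, 916 rose and 163 fell by more than 2-fold. Changes are given as log2 changes, 24 over 6 months, ± standard error, from edgeR's quasi-likelihood F test with both sexes weighted equally, and adjusted p is Benjamini-Hochberg over all genes tested. The median log2 change over all genes was 0.0063. Of the 5622 genes, 4783 had the same sign in both sexes and 839 did not. In males 6387 genes changed (34.4%; 17% higher, 17.3% lower) and in females 1972 (10.6%; 5.3% higher, 5.31% lower). The female count was 1221 without old female 1 and 1140, 1216 and 1314 without young females 1, 2 and 3 in turn. Over both sexes the count was 2616 without the 3 libraries with heart transcripts, of which 2554 were among the 5622, and 3597 without old males 2 and 3 and young male 1, of which 3377 were. Of 46 lists of kidney, immune and metabolic genes, immune lists held most of the rises, and lists of proximal tubule, clock, cholesterol, heat shock and respiratory chain genes held more falls than rises. These lists were chosen with earlier results of these data known.

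**Figure D1:**
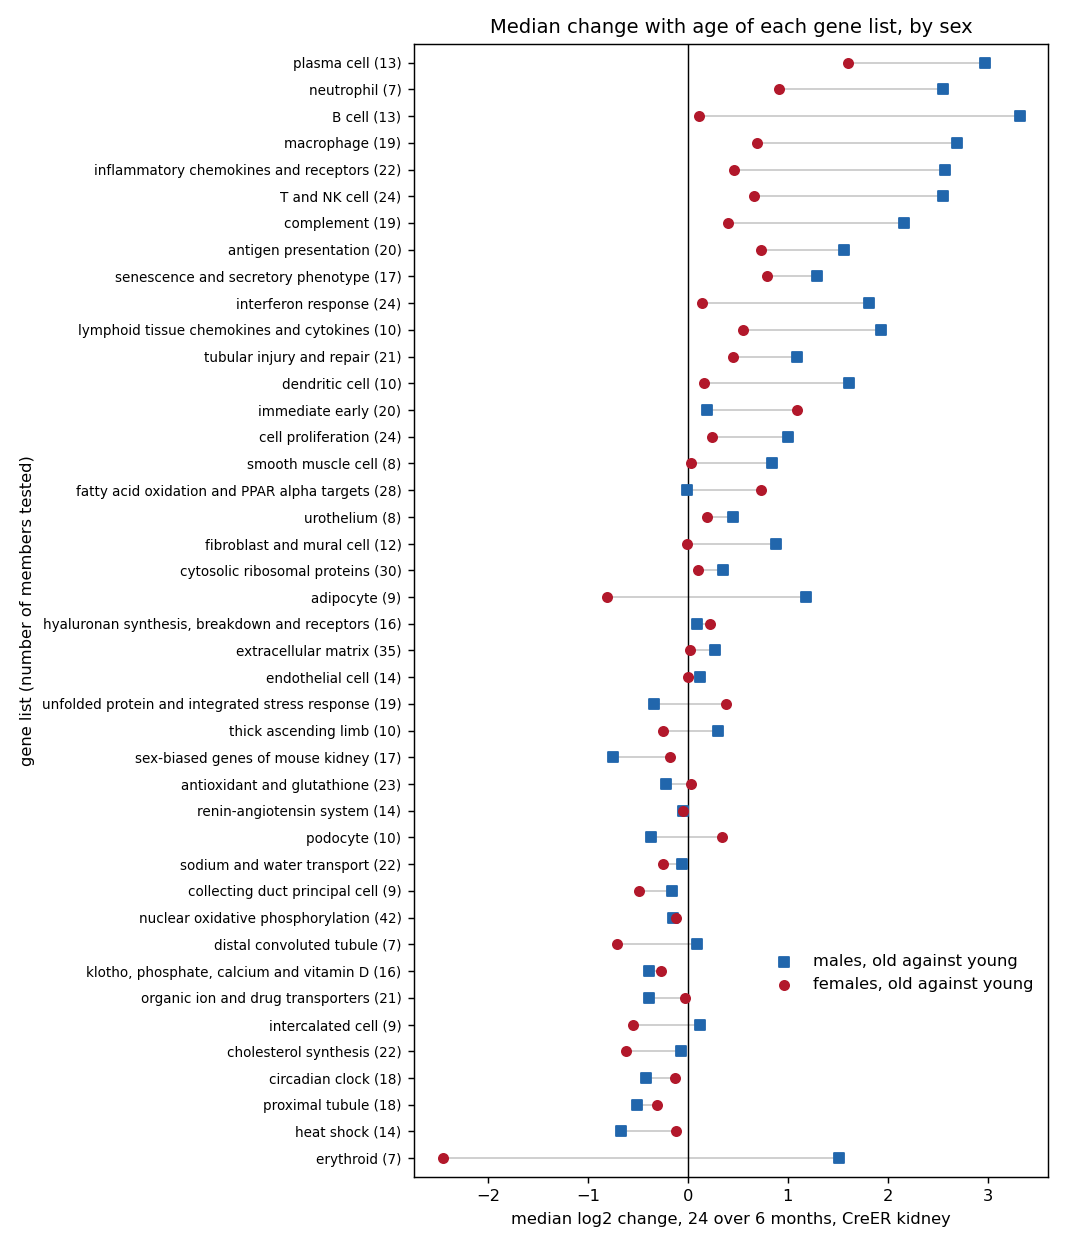
Median log2 change with age (24 over 6 months) of the members of each gene list in CreER males (blue squares) and CreER females (red circles), with the number of members tested in brackets. Lists with fewer than 7 members tested and those of skeletal muscle and adrenal cortex, whose values follow single libraries, are not drawn. Immune lists lie to the right in males, with B cell markers at 3.32 in males and 0.11 in females.

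Macrophage markers rose with age as a group. Of 19 tested, 18 rose and 0 fell, against 14.8% of all genes higher, with a median log2 change of 1.73. In a bulk sample, more cells of a type and more RNA per cell cannot be told apart. C1qb, a chain of the complement starter C1q that tissue macrophages make, had 27.0, 14.8 and 29.8 CPM in old females and 76.6, 102 and 49.1 CPM in old males, against 14.0, 12.3 and 14.0 CPM in young females and 9.43, 12 and 14.1 CPM in young males. Every old library was above every young library of its sex, and the change was 1.75 ± 0.18 (adjusted p = 2.42e-06). C1qc rose by 1.82 ± 0.19 (adjusted p = 2.36e-06), with means of 41.5 ± 26.8 CPM in old and 10.5 ± 2.23 CPM in young kidneys (SD, n = 6 each). Mrc1, the mannose receptor of resident macrophages, had 19.0, 19.7 and 24.2 CPM in old females and 20.2, 37.4 and 15.5 CPM in old males, against 12.7, 15.5 and 14.2 CPM in young females and 3.08, 2.72 and 3.97 CPM in young males. Its change was 1.74 ± 0.19 (adjusted p = 3.58e-06), 2.90 ± 0.29 in males and 0.57 ± 0.24 in females, where the adjusted p was 0.152. Csf1r, the receptor that keeps macrophages alive, was the member that did not pass, at 0.16 ± 0.11 (adjusted p = 0.313). In males 18 of the 19 markers rose and in females 4 did, against 17% and 5.3% of all genes, and the difference between sexes was called for 16, all higher in males. The summed level of the list was 228 to 410 CPM in old females and 401 to 896 CPM in old males, against 195 to 228 CPM in young females and 118 to 173 CPM in young males.

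Complement genes moved with them: of 19 tested, 16 rose and 1 fell, against 14.8% and 15.5% of all genes, with a median of 1.34. In males 16 rose and in females 5, against 17% and 5.3% of all genes. The sex difference was called for 12, all higher in males, against 10.5% of all genes. The list shares the 3 C1q chains and the integrin Itgam with the macrophage markers. The named rises were those of C1qa, C1qb and C1qc. C1qa had 38.0, 22.5 and 44.9 CPM in old females and 70.0, 93.7 and 42.1 CPM in old males, against 18.4, 18.7 and 20.6 CPM in young females and 9.38, 10.8 and 14.0 CPM in young males, with no overlap between ages within a sex (1.73 ± 0.19, adjusted p = 3.99e-06). Cd55, which breaks up complement convertases on the cell surface, was the member that fell, with a log2 change of -0.36.

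Genes of lymphocytes and antibody-producing cells rose as well. Of 24 T and NK cell markers, 22 rose and 0 fell, with a median of 1.47, against 14.8% of all genes higher. In males 22 rose (17% of all genes) and in females 1 rose (5.3% of all genes), and the difference between sexes was called for 5, all higher in males. Their summed level in old female 2, at 9.88 CPM, was below the young females, at 10.7 to 12.3 CPM. Il7r, the interleukin 7 receptor of T cells, had 2.95, 1.11 and 2.53 CPM in old females and 4.07, 3.69 and 1.80 CPM in old males, against 0.511, 0.467 and 0.915 CPM in young females and 0.202, 0.415 and 0.567 CPM in young males. Each old library was above the young ones of its sex (2.39 ± 0.28, adjusted p = 6.12e-06). Ccl5, a chemokine of T and NK cells, had 1.63, 0.532 and 0.910 CPM in old females and 11.2, 12.2 and 6.86 CPM in old males, against 0.571, 1.07 and 0.418 CPM in young females and 0.858, 0.737 and 1.70 CPM in young males. Old and young females overlapped and males did not (1.88 ± 0.30, adjusted p = 9.33e-05). The change was higher in males by 2.63 ± 0.59 (adjusted p = 0.00372). Cd3g, part of the T cell receptor complex, rose by 1.71 ± 0.29 (adjusted p = 0.000173). Cd8a and Klrd1 did not pass, at 0.45 and 0.96.

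Of 13 plasma cell genes, 10 rose, against 14.8% of all genes higher, with a median of 2.46. Xbp1, a secretory transcription factor that many cells express, fell by 0.36 on the log2 scale. Igkc, the constant part of the kappa light chain, was the most abundant of those named: it had 137, 89.5 and 87.2 CPM in old females and 369.5, 269 and 233 CPM in old males, against 18.4, 20.6 and 28.2 CPM in young females and 40.5, 32.9 and 25.0 CPM in young males. All 6 old libraries were above all 6 young ones (2.69 ± 0.32, adjusted p = 6.75e-06), and each sex passed alone (3.15 in males, adjusted p = 2.85e-05, and 2.22 in females, adjusted p = 0.00247). Mzb1, a chaperone of antibody secretion, rose by 2.46 ± 0.37 (adjusted p = 7.42e-05) and Iglc2, a lambda light chain whose reads can be shared with near-identical copies, by 2.70 ± 0.31 (adjusted p = 6.31e-06). Of 13 B cell markers tested, 10 rose (11 in males by their own test and 0 in females). Of all genes 14.8% rose over both sexes, 17% in males and 5.3% in females. The rises of B cell markers, however, came from a minority of libraries. Bank1, a B cell adaptor protein, had 0.377, 0.421 and 0.772 CPM in old females and 5.21, 4.10 and 0.415 CPM in old males, against 0.962, 0.741 and 0.653 CPM in young females and 0.202, 0 and 0.189 CPM in young males. Old males 1 and 2 were far above the other 10 libraries, and the old females lay within or below the young ones (2.03 ± 0.52, adjusted p = 0.0056; males minus females 5.20 ± 1.03, adjusted p = 0.00149). Spib and Fcrla, other B cell genes, had 5.42, 3.33 and 0.415 CPM and 3.17, 2.25 and 0.276 CPM in the 3 old males, again with the third low, and changed by 2.20 and 2.09 over both sexes. The summed B cell level was 99.9 and 58.1 CPM in old males 1 and 2 and 7.02 CPM in old male 3, against 3.34 to 8.74 CPM in young males. In females, 0 of the 13 passed.

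Among cytokines that organise lymphoid tissue, 7 of 10 tested rose and 1 fell, against 14.8% and 15.5% of all genes. In males 8 rose and in females 1, against 17% and 5.3% of all genes. Cxcl13, which draws B cells into follicles, was among the largest rises of all genes. It had 1.60, 2.19 and 13.0 CPM in old females and 19.0, 24.1 and 11.9 CPM in old males, against 1.89, 1.51 and 1.12 CPM in young females and 0.303, 0.277 and 0.425 CPM in young males. All old males and old female 3 were above every young library, while old females 1 and 2 were close to the young females (3.83 ± 0.64, adjusted p = 0.000159; 5.76 ± 1.0 in males and 1.90 ± 0.77 in females, adjusted p = 0.128). Tnfsf13b, the B cell survival factor BAFF, had means of 4.25 ± 1.77 CPM in old and 1.17 ± 0.286 CPM in young kidneys (SD, n = 6 each) and rose by 1.76 ± 0.23 (adjusted p = 1.61e-05). Ccl19, a ligand of the T cell and dendritic cell homing receptor Ccr7, rose by 1.14 ± 0.16 (adjusted p = 4.42e-05), and Ltbr, the lymphotoxin beta receptor, fell by 0.41 on the log2 scale (adjusted p = 6.96e-05). Of 22 inflammatory chemokines and their receptors, 19 rose and 0 fell (median 1.65), against 14.8% of all genes higher. In males 18 rose and 1 fell, in females 2 rose and 0 fell, and the difference between sexes was called for 13, 12 of them higher in males. Ccl8, a monocyte chemokine, had 2.12, 1.46 and 3.62 CPM in old females and 9.0, 11.7 and 5.16 CPM in old males, against 0.902, 1.02 and 0.784 CPM in young females and 0.404, 0.323 and 0.708 CPM in young males. The sexes differed by 2.75 ± 0.95 (adjusted p = 0.0451), although old libraries of both sexes were above the young ones. Ccl9 rose by 1.85 ± 0.24 (adjusted p = 1.88e-05) and Ccr1, a chemokine receptor, by 2.04 ± 0.28 (adjusted p = 2.89e-05). For Ccr1 the female change was -0.024 ± 0.33 and the male change 4.10 ± 0.44, a difference of 4.12 ± 0.56 (adjusted p = 7.08e-05). Of 7 neutrophil markers tested, 4 rose and 0 fell, against 14.8% of all genes higher, with 5 rises and 1 fall in males and 1 rise in females. Among the 4 were S100a8 (2.10 ± 0.41, adjusted p = 0.000683) and S100a9 (1.99 ± 0.37, adjusted p = 0.000374), the subunits of calprotectin. Ly6g, Cxcr2 and Ltf did not pass, at -0.29, -0.17 and 0.54. Of 10 dendritic cell markers 6 rose (7 in males and 0 in females), against 14.8% of all genes (17% in males and 5.3% in females). Among the 6 were Clec10a (1.5 ± 0.25, adjusted p = 0.000197) and Flt3 (1.14 ± 0.26, adjusted p = 0.00218).

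Some immune counts were smaller without the young libraries that carried heart transcripts. Without young females 1 and 2 and young male 2, which leaves 3 young libraries and less power, 9 T and NK cell markers rose in place of 22, 1 B cell marker in place of 10 and 3 dendritic cell markers in place of 6. Lymphoid cytokines then had 4 rises in place of 7. Leaving out old female 3 alone left 6 B cell rises and 1 fall. Macrophage, complement, plasma cell and chemokine counts moved by less than 1.5 times in the same fits. Erythroid genes, whose sums are given above, moved with age in opposite directions in the sexes, 5 of 7 higher in males and 5 of 7 lower in females, and the part of blood in the immune lists was not tested.

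Antigen presentation genes rose with age: of 20 tested, 17 rose and 0 fell, against 14.8% of all genes higher. The median was 1.17, 1.56 in males and 0.73 in females. By each sex alone 18 rose in males and 2 in females, against 17% and 5.3% of all genes. MHC class II molecules show peptides to helper T cells and are switched on as a group through the X and Y boxes of their promoters. The promoters of H2-Eb1 and H2-Aa, which rose, are shown for these boxes, from RefSeq on GRCm38.p6, 250 bases before to 50 after the start of the gene, 5′ to 3′ on the gene's own strand. Capitals mark the letters AACNGATG (part of an X box) and GATTGG (a Y box form), searched on both strands without overlap between them here. H2-Eb1 lies on the plus strand at chr17:34305617-34305916 and H2-Aa on the minus strand at chr17:34287774-34288073.
H2-Eb1: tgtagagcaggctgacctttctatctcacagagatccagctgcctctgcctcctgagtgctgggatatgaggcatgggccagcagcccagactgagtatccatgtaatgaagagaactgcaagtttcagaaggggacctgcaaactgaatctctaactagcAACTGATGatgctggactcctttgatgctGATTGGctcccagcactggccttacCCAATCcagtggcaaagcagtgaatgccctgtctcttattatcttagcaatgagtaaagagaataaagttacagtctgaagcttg
H2-Aa: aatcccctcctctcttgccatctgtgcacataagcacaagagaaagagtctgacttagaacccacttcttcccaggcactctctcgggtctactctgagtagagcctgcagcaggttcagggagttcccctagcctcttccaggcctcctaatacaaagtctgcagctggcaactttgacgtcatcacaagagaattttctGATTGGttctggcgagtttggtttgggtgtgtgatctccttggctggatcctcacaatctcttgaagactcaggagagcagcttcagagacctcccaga
The motifs were chosen after the values were seen. H2-Eb1 held the X box letters at -89 and the Y box letters at -60 and, reversed, at -35 from its start, and H2-Aa held the Y box letters at -49. Among the 14 members that rose and had a promoter in the table, 4 held the X box letters and 11 the Y box letters, against 2.32% and 16.1% of all 32851 promoters. A match of letters is a description and not a binding site.

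H2-Aa, the alpha chain of I-A, had 228, 87.6 and 115 CPM in old females and 292, 302 and 127 CPM in old males, against 82.9, 83.2 and 89.7 CPM in young females and 54.2, 60.6 and 77.2 CPM in young males. Old male values were above all young ones, while old female 2 lay within the young female range (1.33 ± 0.20, adjusted p = 7.42e-05). H2-Eb1, a beta chain, had 113, 41.9 and 68.3 CPM in old females and 196, 229.9 and 97.0 CPM in old males, against 47.9, 47.4 and 48.9 CPM in young females and 35.7, 43.1 and 56.0 CPM in young males (1.29 ± 0.21, adjusted p = 0.000152). It was chosen for its promoter, after its values were seen. B2m, the light chain of MHC class I, had 987, 366 and 367 CPM in old females and 631, 742 and 447 CPM in old males, against 274, 317 and 295 CPM in young females and 181, 198 and 240.0 CPM in young males. Every old library was above every young one, with old female 1 the highest (1.26 ± 0.19, adjusted p = 6.33e-05). Ctss, a protease that trims the class II invariant chain, rose by 1.98 ± 0.21 (adjusted p = 2.77e-06), with means of 63.9 ± 27.0 CPM in old and 17.3 ± 7.82 CPM in young kidneys (SD, n = 6 each). The test of the difference between sexes called 4 of the 20 genes, all higher in males. Without the 3 heart-transcript libraries 7 members rose in place of 17.

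Interferon response genes, which cells switch on to resist viruses, rose in males. Of 24 tested, 20 rose over both sexes and 0 fell (median 1.13), against 14.8% of all genes higher. In males 23 rose, against 17% of all genes, and in females 0 rose and 1 fell, against 5.3% and 5.31%. The difference between sexes was called for 17, all higher in males, against 10.5% of all genes. Irf7, a transcription factor of the response, had 16.1, 7.11 and 13.7 CPM in old females and 45.4, 56.3 and 14.3 CPM in old males, against 8.96, 8.76 and 10.3 CPM in young females and 5.80, 5.02 and 8.88 CPM in young males. Old males were above young males, while old female 2 was below every young female (males 2.56 ± 0.37, adjusted p = 2.59e-05; females 0.39 ± 0.34, adjusted p = 0.535). Usp18, which removes the ubiquitin-like Isg15, rose by 1.26 ± 0.22 (adjusted p = 0.000256), and Ifit2, an RNA-binding antiviral protein, by 0.81 ± 0.14 (adjusted p = 0.000263). For Ifit2 the male change was 1.64 ± 0.21 and the female change -0.016 ± 0.19, with young males, at 7.32, 7.05 and 11.3 CPM, below the other 3 groups. Without the heart-transcript libraries 9 members rose in place of 20.

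Interferon-stimulated genes carry a response element in their promoters that contains the letters GAAANNGAA. The Isg15 promoter, on the minus strand at chr4:156200769-156201068, is shown because it holds 3 overlapping copies, in capitals, at -78, -72 and -66 from the start.
Isg15: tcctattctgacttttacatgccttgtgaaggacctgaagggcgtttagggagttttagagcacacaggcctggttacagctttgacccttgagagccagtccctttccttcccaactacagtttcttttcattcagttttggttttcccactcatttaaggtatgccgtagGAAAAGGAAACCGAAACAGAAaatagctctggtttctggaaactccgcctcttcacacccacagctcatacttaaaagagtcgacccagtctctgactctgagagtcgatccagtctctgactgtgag
Of the 14 members that rose and had a promoter in the table, 9 held these letters on either strand, against 8.56% of all promoters. Isg15, a ubiquitin-like protein chosen for its promoter after its values were seen, had 2.73, 1.82 and 1.84 CPM in old females and 13.2, 14.9 and 5.39 CPM in old males, against 1.86, 1.59 and 1.99 CPM in young females and 1.61, 2.40 and 2.74 CPM in young males. Only the males separated by age (1.27 ± 0.23, adjusted p = 0.000305; males minus females 2.08 ± 0.45, adjusted p = 0.00299).

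**Figure D2:**
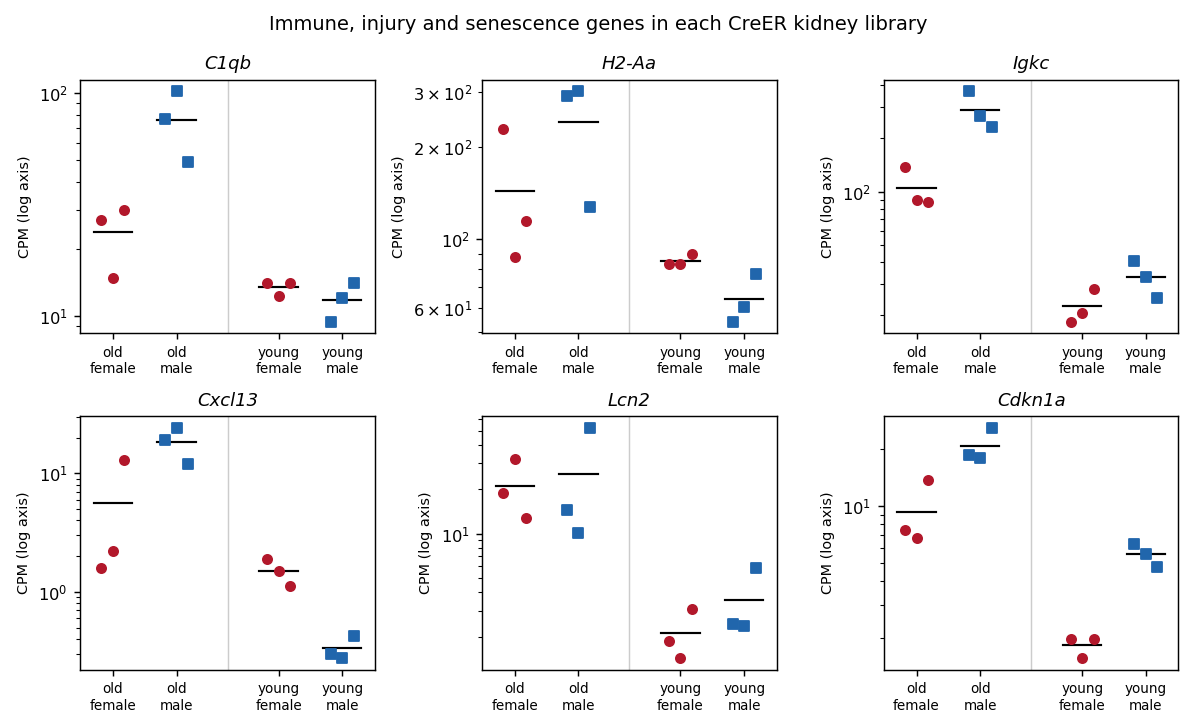
Level in CPM (log axis) of C1qb, H2-Aa, Igkc, Cxcl13, Lcn2 and Cdkn1a in each CreER kidney library, old groups left of young groups, females as red circles and males as blue squares, with the group mean as a line (n = 3). Old libraries of Igkc, at 87.2 to 369.5 CPM, lie above all young ones, at 18.4 to 40.5 CPM, while for Cxcl13 old female 1 lies among the young females.

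Genes of tubular injury and repair rose, 13 of 21, with 0 falls and a median of 0.82, against 14.8% of all genes higher. In males 10 rose and 1 fell, with 17% of all genes higher, and in females 6 rose, with 5.3% of all genes higher. Lcn2, the injury marker NGAL, had 18.8, 32.1 and 12.7 CPM in old females and 14.4, 10.1 and 52.0 CPM in old males, against 1.86, 1.43 and 3.08 CPM in young females and 2.42, 2.35 and 5.81 CPM in young males. All old libraries exceeded all young ones, and both sexes passed (3.08 ± 0.39, adjusted p = 1.32e-05). Vcam1, an adhesion molecule of failed-repair tubule cells and of endothelium, had 29.6, 20.9 and 29.5 CPM in old females and 34.8, 44.0 and 28.4 CPM in old males, against 12.9, 12.7 and 16.5 CPM in young females and 5.60, 5.35 and 5.10 CPM in young males, without overlap (1.83 ± 0.17, adjusted p = 1.09e-06). Cp, the copper protein ceruloplasmin, had 302, 304 and 310.2 CPM in old females and 114, 104 and 244 CPM in old males, against 156, 123 and 163 CPM in young females and 24.1, 31.8 and 33.6 CPM in young males. Ages did not overlap within a sex, although young females lay above 2 of the 3 old males (1.71 ± 0.17, adjusted p = 1.9e-06). Vim, an intermediate filament, rose by 1.51 ± 0.14 in males (adjusted p = 3.94e-07), with 0.18 ± 0.13 in females (adjusted p = 0.461). Havcr1, the proximal tubule injury marker KIM-1, did not pass (1.05 ± 0.67, adjusted p = 0.265), with 3.80 ± 2.25 CPM in old and 1.62 ± 1.08 CPM in young kidneys (SD, n = 6 each). Without the heart-transcript libraries 8 members rose in place of 13.

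Among senescence and secretory genes 11 of 17 tested rose and 1 fell, against 14.8% and 15.5% of all genes. Here the sexes were closer, with 8 rises in each, against 17% of all genes higher in males and 5.3% in females. Cdkn1a, the cell cycle inhibitor p21, had 7.42, 6.78 and 13.6 CPM in old females and 18.6, 18 and 25.8 CPM in old males, against 1.98, 1.57 and 1.99 CPM in young females and 6.26, 5.58 and 4.77 CPM in young males. All old libraries were above all young ones (2.12 ± 0.24, adjusted p = 5.52e-06), and the difference between sexes was -0.42 ± 0.48 (adjusted p = 0.568). Mmp3, a matrix protease, rose by 2.38 ± 0.36 (adjusted p = 6.56e-05), and Glb1, the lysosomal beta-galactosidase, fell by 0.39 on the log2 scale. Cdkn2a, which encodes p16, was filtered out for low counts. Of 24 proliferation genes 6 rose and 0 fell, against 14.8% of all genes higher, with 10 rises in males and 1 in females. Among the 6 were Pcna (0.45 ± 0.055, adjusted p = 9.8e-06), Mcm7 (0.35 ± 0.058, adjusted p = 0.000151) and Mcm4 (0.54 ± 0.094, adjusted p = 0.000242), which act in DNA replication. The count of rises over both sexes was 15 with only the CreER libraries in the fit, and 3 without the heart-transcript libraries.

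Matrix genes moved both ways. Of 35 extracellular matrix genes tested 9 rose and 4 fell, against 14.8% and 15.5% of all genes. Ccn2, the profibrotic connective tissue growth factor, had 89.5, 98.8 and 125 CPM in old females and 71.8, 71.1 and 103 CPM in old males, against 51.2, 45.2 and 54.0 CPM in young females and 34.4, 63.8 and 49.7 CPM in young males, with each old library above all young ones (0.89 ± 0.17, adjusted p = 0.00042). Tgfbi, a TGF-beta induced matrix protein, rose by 1.13 ± 0.19 (adjusted p = 0.000169) and Lox, which cross-links collagen, by 1.0 ± 0.22 (adjusted p = 0.00194). Col1a1, the main fibrillar collagen gene, did not pass, at -0.59 ± 0.24 (adjusted p = 0.0744). Without the heart-transcript libraries 2 matrix genes rose and 2 fell. Of 12 fibroblast and mural cell markers 6 rose and 0 fell, against 14.8% of all genes higher. Among the 6 were Thy1 at 1.15 ± 0.22 (adjusted p = 0.000487), the pericyte gene Rgs5 at 0.58 ± 0.13 (adjusted p = 0.00179) and Pdpn at 0.65 ± 0.15 (adjusted p = 0.00281). Col1a1, Cspg4, Gli1 and Meg3, at -0.59, -0.35, -0.32 and -0.21, and Pdgfrb and Postn, at 0.073 and 0.017, did not pass. In males 6 of these 12 rose and 1 fell, and in females 0 passed. The smooth muscle genes Tagln (0.93 ± 0.14, adjusted p = 8.86e-05) and Acta2 (0.63 ± 0.13, adjusted p = 0.0012) rose. In that list 3 of 8 were higher and 1 lower, against 14.8% and 15.5% of all genes. Endothelial markers mostly did not pass, with 3 of 14 higher, against 14.8% of all genes. These were Pecam1 at 0.48 ± 0.086 (adjusted p = 0.000331), Egfl7 at 0.37 ± 0.081 (adjusted p = 0.00168) and Emcn at 0.29 ± 0.084 (adjusted p = 0.0126).

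Genes of hyaluronan, the matrix polysaccharide the study is about, were called in both directions: of 16 tested 4 rose and 3 fell, against 14.8% and 15.5% of all genes. Cd44, its main cell receptor, had 3.42, 2.59 and 3.76 CPM in old females and 14.3, 17.6 and 4.33 CPM in old males, against 2.26, 2.5 and 2.38 CPM in young females and 1.66, 1.89 and 1.65 CPM in young males. Old males 1 and 2 stood highest, and the change was 1.63 ± 0.26 (adjusted p = 0.00012). Stab2, a scavenger receptor that clears hyaluronan, had 4.15, 3.12 and 4.06 CPM in old females and 1.66, 3.15 and 1.75 CPM in old males, against 13.0, 12.7 and 12.2 CPM in young females and 4.44, 2.77 and 2.6 CPM in young males. The change was -1.16 ± 0.21 (adjusted p = 0.000403), with females separated by age and males overlapping. Lyve1, the lymphatic and macrophage receptor, rose by 1.54 ± 0.33 (adjusted p = 0.00148). Mouse Has2 was at or near 0 in all 12 libraries (0.0796 ± 0.0807 CPM in old and 0.0728 ± 0.0664 CPM in young, SD, n = 6 each; adjusted p = 0.617).

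Over both sexes, 11 of 18 proximal tubule markers fell and 0 rose, against 15.5% of all genes lower, with a median of -0.34. In males 12 fell and 0 rose (17.3% and 17% of all genes), and in females 6 fell and 3 rose (5.31% and 5.3%). The sex difference was called for 9, with 3 higher and 6 lower in males. The female rises were Pck1, of gluconeogenesis, at 1.89 ± 0.26 (adjusted p = 9.78e-05), and the transporters Slc22a6 and Slc22a12, at 0.55 ± 0.15 and 0.56 ± 0.17 (adjusted p = 0.0237 and 0.0413). In males Pck1 changed by -1.76 ± 0.26 (adjusted p = 3.33e-05). Slc34a1, the main renal phosphate transporter, had 738, 788 and 783 CPM in old females and 1633, 1956 and 1459 CPM in old males, against 1411, 1493 and 1283 CPM in young females and 4623, 4055 and 3917 CPM in young males. Within each sex old and young did not overlap, and the change was -1.09 ± 0.11 (adjusted p = 2.42e-06). Ass1, argininosuccinate synthase of arginine synthesis, had 272, 267 and 361 CPM in old females and 1156, 1312 and 1351 CPM in old males, against 851, 912 and 788 CPM in young females and 2289, 1888 and 1835 CPM in young males (-1.08 ± 0.11, adjusted p = 2.77e-06). The female fall was larger, with a male minus female difference of 0.85 ± 0.23 (adjusted p = 0.0111). Hnf4a, a transcription factor of the proximal tubule, changed by -0.54 ± 0.09 (adjusted p = 0.000164), -0.81 ± 0.13 in males and -0.27 ± 0.13 in females. Without old males 2 and 3 and young male 1, or without the heart-transcript libraries, 7 markers fell in place of 11.

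In podocytes and the later nephron, few markers passed over both sexes, and counts often differed between the sexes. Of all genes, 14.8% rose and 15.5% fell over both sexes, 17% and 17.3% in males, and 5.3% and 5.31% in females. With 7 to 10 members per list, 1 or 2 calls over both sexes are near these shares. The sex difference was called higher in males for 10.5% of all genes and lower for 11%. Of 10 podocyte markers 1 rose, Cdkn1c at 0.41 ± 0.10 (adjusted p = 0.00501), and 1 fell, Clic5 at -0.28 ± 0.10 (adjusted p = 0.0409), a call lost in 9 of the 12 fits that each left out 1 library. Of the podocyte markers 3 fell in males and 1 rose in females, and the sex difference was called for 3, all lower in males. Of 10 thick ascending limb markers 2 rose, Cldn16 at 0.47 ± 0.12 (adjusted p = 0.0043) and Umod, uromodulin, at 0.48 ± 0.15 (adjusted p = 0.0232). Umod had 2982, 3051 and 6343 CPM in old males and 2364, 2593 and 1767 CPM in young males, and without old male 3, the highest, the change was 0.25 (adjusted p = 0.0907). In males 4 of these 10 rose and in females 2 fell, and the sex difference was called for 4, all higher in males. In the distal convoluted tubule 2 of 7 fell, 1 in males and 3 in females, with 4 called higher in males: Calb1, a calcium-binding protein, at -0.74 ± 0.15 (adjusted p = 0.000741), and Kl. Collecting duct principal cells had 2 falls of 9 over both sexes (1 fall and 1 rise in males and 3 falls in females), Hsd11b2, which shields the mineralocorticoid receptor from glucocorticoids, at -0.80 ± 0.12 (adjusted p = 9.15e-05), and Scnn1b, a sodium channel subunit, at -0.35 ± 0.10 (adjusted p = 0.0126). Of 9 intercalated cell markers 1 fell in males, against 17.3% of all genes, and 6 in females, against 5.31%, with medians of 0.12 in males and -0.55 in females. The sex difference was called for 3, all higher in males. Over both sexes 2 of 9 fell, Insrr at -0.97 ± 0.17 (adjusted p = 0.000209) and Slc4a1, the anion exchanger AE1, at -0.43 ± 0.11 (adjusted p = 0.005).

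Of 16 phosphate, calcium and vitamin D genes, 7 fell and 0 rose over both sexes, against 15.5% of all genes lower. In males 9 fell and 1 rose (17.3% and 17% of all genes), and in females 6 fell and 4 rose (5.31% and 5.3%). The sex difference was called for 8, with 3 higher and 5 lower in males. The female rises were Slc20a1, Slc20a2, Cyp24a1 and Vdr, the vitamin D receptor, and the male rise was Cyp27b1, which makes active vitamin D, at 1.55 ± 0.51 (adjusted p = 0.0239). Vdr changed by -0.69 ± 0.11 in males (adjusted p = 5.12e-05) and by 0.96 ± 0.11 in females (adjusted p = 1.02e-05). Kl encodes klotho, the co-receptor of the phosphate hormone FGF23. It had 123, 117 and 139 CPM in old females and 474, 494 and 417 CPM in old males, against 251, 273 and 249 CPM in young females and 686, 602 and 518 CPM in young males. No old library reached the young libraries of its sex (-0.71 ± 0.072, adjusted p = 2.36e-06), and the female change of -1.03 ± 0.10 differed from the male change of -0.38 ± 0.10 by 0.64 ± 0.14 (males minus females, adjusted p = 0.00354). Slc9a3r1, the scaffold NHERF1 of Slc34a1, had 191, 189 and 153 CPM in old males and 285, 278 and 273 CPM in young males, with a change of -0.48 ± 0.061 over both sexes (adjusted p = 1.34e-05). Among 14 genes of the renin-angiotensin system 3 rose and 3 fell, against 14.8% and 15.5% of all genes. Ace, the angiotensin-converting enzyme of the brush border, had 139, 104 and 105 CPM in old females and 42.8, 43.6 and 26.2 CPM in old males, against 148, 142 and 116 CPM in young females and 185, 216 and 199.7 CPM in young males. The change was -2.41 ± 0.22 in males (adjusted p = 3.89e-07), with -0.22 ± 0.21 in females (adjusted p = 0.579), and the sexes differed by -2.19 ± 0.30 (adjusted p = 7.08e-05). Anpep, an aminopeptidase, changed by -0.75 ± 0.13 (adjusted p = 0.000201), -1.43 in males (adjusted p = 9.23e-06) and -0.074 in females (adjusted p = 0.861). Agt, angiotensinogen, rose by 0.62 ± 0.087 (adjusted p = 3.68e-05), with 76.3 ± 12.5 CPM in old and 49.3 ± 4.54 CPM in young kidneys (SD, n = 6 each). Of 22 sodium and water transport genes 6 fell and 1 rose, against 15.5% and 14.8% of all genes. In males 5 fell and 3 rose (17.3% and 17% of all genes), and in females 4 fell and 1 rose (5.31% and 5.3%). Among the falls were Slc9a3, the proximal sodium-proton exchanger, at -0.59 ± 0.075 (adjusted p = 1.37e-05), the kinase Wnk4 at -0.48 ± 0.10 (adjusted p = 0.00109) and the sodium pump subunit Atp1b1 at -0.26 ± 0.061 (adjusted p = 0.00346). Atp1b1 changed by -0.53 in males and 0.018 in females.

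Of 21 organic ion and drug transporters 9 fell and 3 rose over both sexes, against 15.5% and 14.8% of all genes. In males 13 fell and 3 rose, against 17.3% and 17% of all genes. In females 2 fell and 2 rose, against 5.31% and 5.3%. Slc22a7, the organic anion transporter OAT2, had 98.8, 83.9 and 68.2 CPM in old females and 28.8, 28.2 and 5.07 CPM in old males, against 88.5, 102 and 61.3 CPM in young females and 189.9, 256 and 251 CPM in young males. The male change was -3.48 ± 0.39 (adjusted p = 2.75e-06), whereas the female change was -0.0051 ± 0.35 and the ranges of females overlapped. Slco3a1 changed by -0.53 ± 0.082 (adjusted p = 8.34e-05), with the sexes apart by -1.34 ± 0.16 (adjusted p = 3.24e-05), and Slc22a18 by -0.53 ± 0.091 (adjusted p = 0.000218).

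Fatty acid oxidation genes and targets of PPAR alpha, the nuclear receptor that switches on fat burning, rose in females. Of 28 tested, 20 rose and 1 fell over both sexes, against 14.8% and 15.5% of all genes. In females 22 rose and 0 fell (5.3% and 5.31% of all genes), and in males 5 rose and 5 fell (17% and 17.3%). The medians were -0.013 in males and 0.73 in females. The difference between sexes was called for 20 genes, 19 of them lower in males, against 11% of all genes. Angptl4, a secreted inhibitor of lipoprotein lipase, had 147, 153 and 177 CPM in old females and 63.2, 63.0 and 97.3 CPM in old males, against 9.50, 11.6 and 7.68 CPM in young females and 26.8, 83.7 and 44.2 CPM in young males. Old females were far above young females, and males overlapped (males minus females -3.52 ± 0.51, adjusted p = 0.000121). Vnn1, a pantetheinase and PPAR alpha target, had log2 changes of 1.81 ± 0.16 in females (adjusted p = 2.25e-06) and 0.31 ± 0.16 in males (adjusted p = 0.144). Cyp4a14, an omega-hydroxylase of fatty acids whose reads can be shared with close relatives, had 1139.7, 897 and 1567 CPM in old females and 199, 172 and 1425 CPM in old males, against 193, 244 and 180.2 CPM in young females and 35.1, 34.2 and 36.2 CPM in young males (3.32 ± 0.45, adjusted p = 2.73e-05). Among old males the third, at the level of old females, stood apart, and without it the male change was 2.40 in place of 4.09. Acads, a short-chain acyl-CoA dehydrogenase, was the member that fell, in males alone by its own test. Leaving out old males 2 and 3 and young male 1 left 13 rises.

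**Figure D3:**
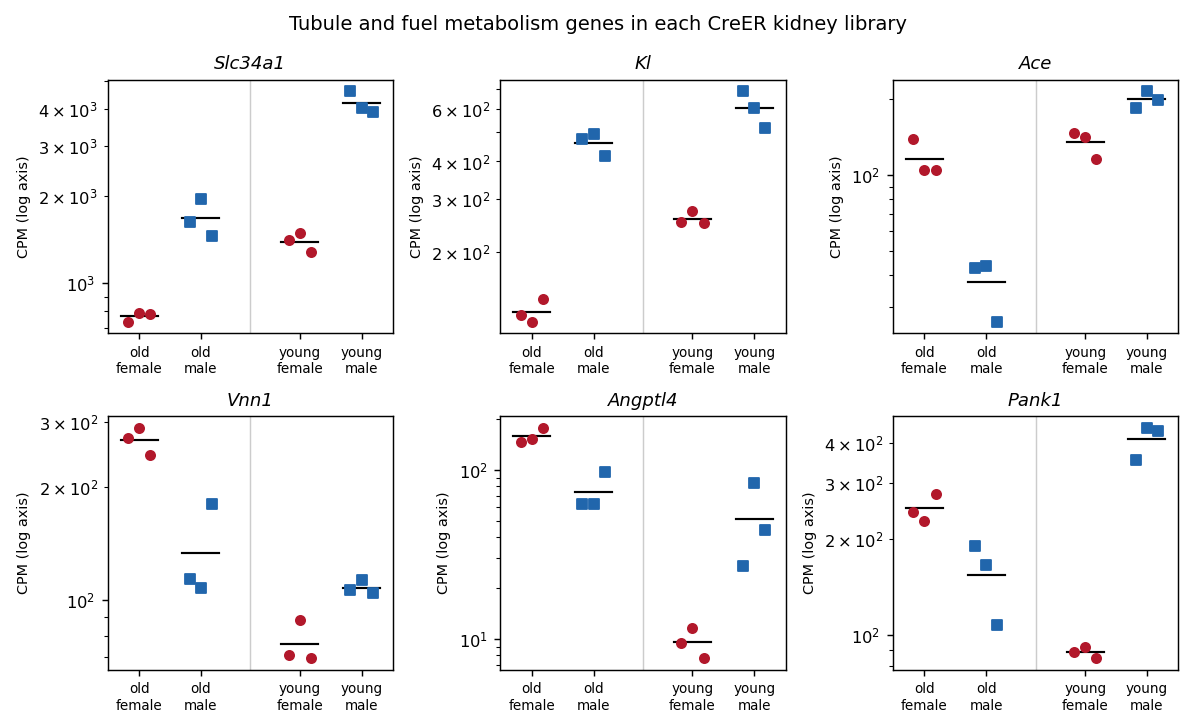
Level in CPM (log axis) of Slc34a1, Kl, Ace, Vnn1, Angptl4 and Pank1 in each CreER kidney library, old groups left of young groups, females as red circles and males as blue squares, with the group mean as a line (n = 3). Kl is lower in old than in young libraries of both sexes, Ace separates by age in males, and Pank1 is higher in old females and lower in old males than in the young of their sex.

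Of 42 nuclear genes of oxidative phosphorylation 14 fell and 0 rose, with a median of -0.13, against 15.5% of all genes lower. In males 13 fell and in females 2, against 17.3% and 5.31% of all genes. The falls were small: Uqcrc1, a complex III subunit, changed by -0.43 ± 0.06 (adjusted p = 3.64e-05), Sdhc of complex II by -0.38 ± 0.049 (adjusted p = 1.44e-05) and Cyc1 by -0.33 ± 0.048 (adjusted p = 4.98e-05). The count was 4 without the heart-transcript libraries and 21 with DESeq2. Cytosolic ribosomal protein genes rose by little, 25 of 30 with a median of 0.23, against 14.8% of all genes higher. In males 26 rose and in females 1, against 17% and 5.3% of all genes. Rps4x changed by 0.35 ± 0.053 (adjusted p = 8.34e-05), Rpl3 by 0.31 ± 0.052 (adjusted p = 0.000172) and Rplp0 by 0.23 ± 0.051 (adjusted p = 0.00187), with reads that can be shared with pseudogenes. Only 13 passed without young male 1 and 6 without the heart-transcript libraries. Antioxidant genes split, 5 of 23 higher and 7 lower, against 14.8% and 15.5% of all genes. In males 4 were higher and 10 lower (17% and 17.3% of all genes), and in females 3 were higher and 1 lower (5.3% and 5.31%). Nqo1, a quinone reductase under NRF2, had 89.4, 85.9 and 99.5 CPM in old females and 93.1, 80.0 and 113 CPM in old males, against 37.0, 39.4 and 38.7 CPM in young females and 56.0, 61.0 and 56.5 CPM in young males, without overlap (0.99 ± 0.14, adjusted p = 3.39e-05). The brush border enzyme Ggt1 (-0.55 ± 0.092, adjusted p = 0.000166) and the glutathione synthesis subunit Gclm (-0.37 ± 0.063, adjusted p = 0.000212) fell over both sexes. In males they changed by -1.08 and -0.78 (adjusted p = 5.47e-06 and 3.7e-06), and in females by -0.019 and 0.040 (adjusted p = 0.958 and 0.847).

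Of 22 cholesterol synthesis genes 11 fell and 0 rose over both sexes, against 15.5% of all genes lower. In males 7 fell and 2 rose, Fdft1 and Stard4, against 17.3% and 17% of all genes. In females 14 fell and 0 rose, against 5.31% and 5.3%. The medians were -0.074 in males and -0.62 in females. The sex difference was called for 12, of which 10 were higher in males. Cyp51, lanosterol demethylase, had 261, 244 and 188 CPM in old females and 145, 122 and 81.0 CPM in old males, against 335, 349.8 and 320.0 CPM in young females and 247, 228 and 231 CPM in young males. Ages did not overlap within a sex (-0.78 ± 0.11, adjusted p = 3.03e-05). Mvd changed by -0.85 ± 0.11 (adjusted p = 2.19e-05) and Idi1 by -0.91 ± 0.14 (adjusted p = 8.34e-05), enzymes earlier in the pathway. Of 14 heat shock genes 7 fell and 0 rose, against 15.5% of all genes lower. In males 9 fell and in females 0, against 17.3% and 5.31% of all genes. Dnaja1 changed by -0.74 ± 0.16 (adjusted p = 0.0012), Hspd1 by -0.35 ± 0.077 (adjusted p = 0.00187) and the master factor Hsf1 by -0.31 ± 0.06 (adjusted p = 0.000527). Without young male 2, whose Dnaja1 was the highest at 803 CPM, 4 fell, and without the heart-transcript libraries 2. Of 19 genes of the unfolded protein and integrated stress responses 3 rose and 2 fell, close to the 14.8% and 15.5% of all genes. In females 3 rose and 0 fell, and in males 1 rose and 3 fell. The rises called over both sexes were Atf3 (1.39 ± 0.30, adjusted p = 0.00159), Asns (0.87 ± 0.20, adjusted p = 0.00223) and Trib3 (1.10 ± 0.27, adjusted p = 0.0035). Asns and Trib3 changed by 1.52 and 2.10 in females (adjusted p = 0.00107 and 0.00106). In males they changed by 0.23 and 0.11 (adjusted p = 0.592 and 0.866).

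Of 20 immediate early genes 11 rose and 0 fell over both sexes, against 14.8% of all genes higher. In males 2 rose and 1 fell, with 17% of all genes higher, and in females 10 rose and 0 fell, with 5.3% of all genes higher. The difference was called for 6, all lower in males. Klf6 changed by 0.61 ± 0.10 (adjusted p = 0.000212). Ccn1 had 22.0, 25.0 and 18.2 CPM in old females and 19.2, 21.4 and 22.6 CPM in old males, against 9.26, 10.2 and 9.09 CPM in young females and 17.6, 21.9 and 13.0 CPM in young males, apart by age in females only (0.73 ± 0.14, adjusted p = 0.000474). Myc changed by 0.96 ± 0.21 (adjusted p = 0.00152). Without old male 3 the count was 7 and without the heart-transcript libraries 3.

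Clock genes also moved, 9 of 18 lower and 2 higher, against 15.5% and 14.8% of all genes. Dbp, an output factor of the clock, had 7.09, 6.69 and 3.54 CPM in old females and 30.5, 35.5 and 35.4 CPM in old males, against 15.5, 14.3 and 17.0 CPM in young females and 80.5, 73.9 and 103 CPM in young males. Ages did not overlap within a sex (-1.39 ± 0.30, adjusted p = 0.00146). Tef, its relative, changed by -0.52 ± 0.12 (adjusted p = 0.00262), and Arntl, the activator BMAL1, rose by 0.89 ± 0.21 (adjusted p = 0.00366). Arntl had 19.4, 19.0 and 27.2 CPM in old females and 9.0, 7.38 and 5.90 CPM in old males, against 14.5, 16.1 and 15.2 CPM in young females and 4.14, 3.0 and 2.27 CPM in young males. BMAL1 and CLOCK bind the E-box, letters CACGTG, and the Ciart promoter, on the minus strand at chr3:95882179-95882478, is shown for its 3 copies, in capitals, at -116, -58 and -44.
Ciart: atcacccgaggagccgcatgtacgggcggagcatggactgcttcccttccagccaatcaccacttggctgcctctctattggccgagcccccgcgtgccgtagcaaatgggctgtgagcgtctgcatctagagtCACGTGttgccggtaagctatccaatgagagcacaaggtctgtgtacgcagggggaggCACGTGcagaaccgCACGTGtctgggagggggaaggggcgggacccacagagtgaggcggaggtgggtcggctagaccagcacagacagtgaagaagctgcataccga
Ciart, a repressor of the clock chosen for its promoter after its values were seen, had 0.519, 0.487 and 0.435 CPM in old females and 2.76, 2.79 and 3.96 CPM in old males, against 0.842, 0.632 and 0.915 CPM in young females and 11.6, 10.0 and 9.82 CPM in young males (-1.23 ± 0.34, adjusted p = 0.00957). Of the 9 clock genes called and found in the promoter table, 2 held the E-box letters, against 7.15% of all promoters. The time of day at collection is not given in the labels, so that it cannot be told apart from age in this list. Without the heart-transcript libraries 1 clock gene fell and 0 rose.

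Genes known for sex-biased expression in the mouse kidney changed in both directions, 5 of 17 higher and 6 lower, against 14.8% and 15.5% of all genes. Esr1, the oestrogen receptor alpha, changed by -0.48 ± 0.069 (adjusted p = 4.86e-05). Abcc3, an organic anion exporter higher in females, had 92.8, 71.4 and 75.2 CPM in old females and 6.86, 5.99 and 15.0 CPM in old males, against 50.1, 49.8 and 32.7 CPM in young females and 1.36, 1.43 and 4.30 CPM in young males (1.4 ± 0.25, adjusted p = 0.00027). Several of these genes set old male 3 apart, and Kap, Slco1a1, Prlr and Slc7a13 are given for that, chosen after their values were seen. Kap, the androgen-regulated protein of the proximal tubule, had 16941, 15282 and 1509 CPM in old males and 28064, 33670.1 and 30108 CPM in young males. Slco1a1, an organic anion transporter of males, had 38.3, 30.1 and 0.645 CPM in old males and 361, 436 and 372 CPM in young males. Its male change was -4.07 ± 0.78 (adjusted p = 0.000448), and -3.51 without old male 3 (adjusted p = 0.000312). Prlr, the prolactin receptor, ran the other way, with 114, 86.6 and 174 CPM in old males and 9.38, 5.53 and 2.98 CPM in young males, and 70.9, 75.3 and 85.0 CPM in old females and 169.8, 163 and 145 CPM in young females. Its male change was 4.39 ± 0.55 (adjusted p = 7.36e-06) and 4.08 without old male 3. Slc7a13 had 707, 589 and 156 CPM in old males and 860.5, 1002 and 699 CPM in young males (male change -0.82 ± 0.38, adjusted p = 0.1). Y chromosome genes summed to 164 CPM in old male 3 and to 124 to 155 CPM in the other males.

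**Figure D4:**
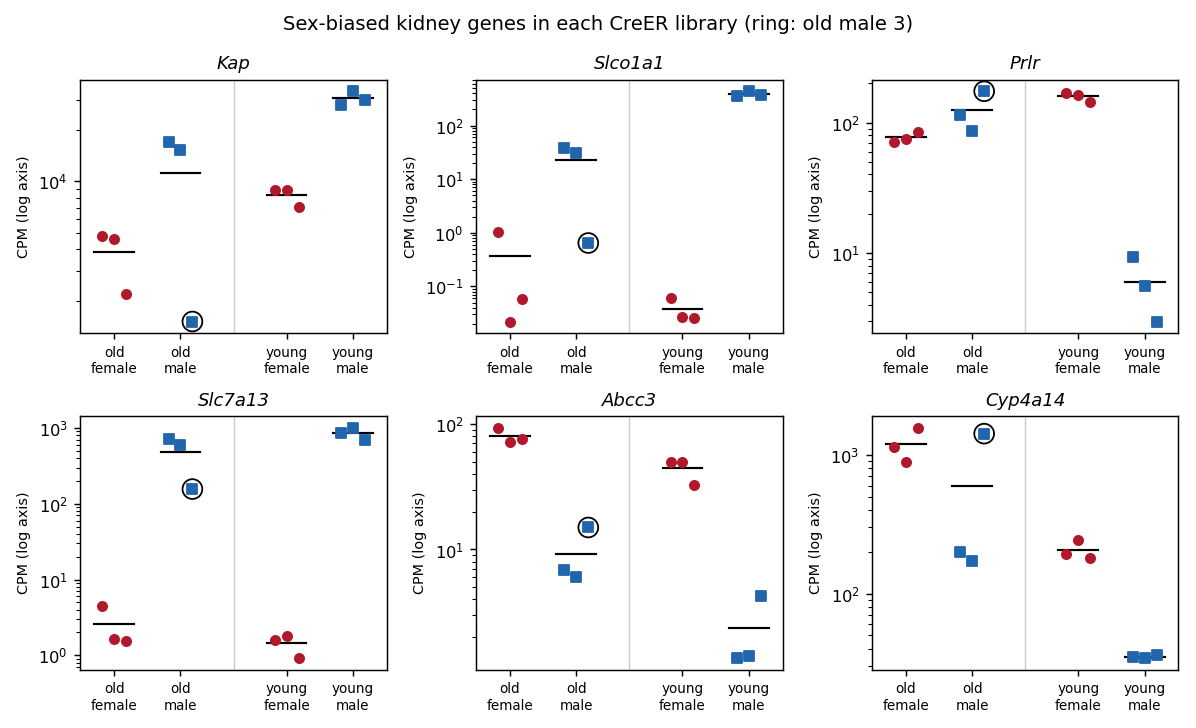
Level in CPM (log axis) of Kap, Slco1a1, Prlr, Slc7a13, Abcc3 and Cyp4a14 in each CreER kidney library, old groups left of young groups, females as red circles, males as blue squares, group means as lines (n = 3) and old male 3 ringed. Old male 3 is the lowest male for Kap, Slco1a1 and Slc7a13 and the highest male for Prlr, Abcc3 and Cyp4a14, and old males 1 and 2 lie between it and the young males for Kap and Slco1a1.

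The largest rises held, besides Cxcl13, Ccl8, Lcn2 and Cyp4a14, the following genes. Grem1, a secreted inhibitor of bone morphogenetic proteins, had 7.71, 14.3 and 4.83 CPM in old females and 4.28, 4.01 and 4.01 CPM in old males, against 0.962, 1.26 and 0.732 CPM in young females and 0.303, 0.461 and 0.0944 CPM in young males. All old libraries were above all young ones (3.5 ± 0.37, adjusted p = 2.77e-06). Pappa2, a protease that frees insulin-like growth factors, had 2.36, 2.06 and 2.14 CPM in old females and 4.97, 6.71 and 8.38 CPM in old males, against 0.120, 0.330 and 0.392 CPM in young females and 0.454, 0.323 and 0.756 CPM in young males, again without overlap (3.31 ± 0.28, adjusted p = 3.89e-07). Ms4a6d, a macrophage membrane protein, changed by 3.11 ± 0.34 (adjusted p = 4.02e-06), and Serpina3g, a protease inhibitor of a family with close copies, by 2.68 ± 0.27 (adjusted p = 1.94e-06). The muscle genes Myh1, Mybpc2 and Neb were also in this group, but followed old male 2, at 39.3, 35.5 and 36.0 CPM. Without it their changes were 1.93, 1.87 and 1.43 in place of 3.90, 3.52 and 2.92, with adjusted p = 0.0132, 0.0167 and 0.0388. Mylpf, another of the muscle list, was then no longer called (adjusted p = 0.0747).

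Of the 10 largest falls, 4 were heart muscle genes, Myl2, Myh6, Actc1 and Tnnt2, with log2 changes of -5.80, -5.63, -4.25 and -3.17. These were high in the 3 young libraries that carried heart transcripts, and without them the adjusted p was 0.792, 0.878, 0.532 and 0.616, with changes of 3.22, -0.54, 3.34 and 1.05. Star, of adrenal steroid synthesis, had 153 CPM in young male 1 and 1.08 to 1.79 CPM in the other 11 libraries, and without that library its change was -0.27 (adjusted p = 0.794). The falls described next were spread over the libraries. Akr1c18, a progesterone-degrading reductase, had 68.8, 72.8 and 7.40 CPM in old females and 3.48, 3.11 and 0.184 CPM in old males, against 130.1, 144 and 93.3 CPM in young females and 42.1, 63.7 and 34.5 CPM in young males (-2.81 ± 0.44, adjusted p = 8.34e-05). Slc22a26, an organic ion transporter of a cluster of close relatives, had 4.45, 5.29 and 1.72 CPM in old females and 12.6, 9.0 and 11.0 CPM in old males, against 18.5, 21.4 and 17.0 CPM in young females and 55.2, 42.9 and 38.3 CPM in young males (-2.19 ± 0.22, adjusted p = 2.08e-06). Inmt, a methyltransferase of indoles, had 14.9, 13.6 and 14.6 CPM in old females and 399, 378 and 71.3 CPM in old males, against 103, 146 and 89.9 CPM in young females and 739, 631 and 576 CPM in young males (-2.09 ± 0.27, adjusted p = 1.53e-05). Pde6a, a phosphodiesterase subunit best known from rods, changed by -2.01 ± 0.31 (adjusted p = 8.07e-05).

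The sexes aged differently in many genes. The difference, males minus females, was called for 3983 genes (21.4%), 1943 higher and 2040 lower in males. For 2646 of them the signs were opposite in the sexes and for 1337 they were the same. Genes called in each sex overlapped in 580 with the same direction, 9.08% of the male and 29.4% of the female calls, and in 275 with opposite directions. Across all genes the male and female changes had a Pearson correlation of 0.22 and a Spearman correlation of 0.18, as a description over 18591 genes that share libraries. The 8 genes with the smallest p were Acot12, Scrn2, Acads, Pank1, Tkfc, Bsdc1, Slc25a10 and Nudt19, all lower in males. Pank1, which starts coenzyme A synthesis, had 189.6, 165 and 107 CPM in old males and 352, 445 and 435 CPM in young males, and 243, 228 and 277 CPM in old females and 88.8, 91.9 and 84.8 CPM in young females. It fell in males (-1.41 ± 0.16) and rose in females (1.49 ± 0.16), and the difference was -2.91 ± 0.23 (adjusted p = 2.12e-07). Its levels in the sexes were closer at 24 than at 6 months. Acot12, an acetyl-CoA thioesterase, had 136, 115 and 135 CPM in old males and 172, 189 and 179 CPM in young males, and 206, 196 and 233 CPM in old females and 73.2, 86.6 and 71.5 CPM in young females. The difference was -1.94 ± 0.15 (adjusted p = 2.12e-07). Nudt19, which cleaves coenzyme A, had 269.8, 249.6 and 226 CPM in old males and 605, 1224 and 1045 CPM in young males, and 301, 262 and 237 CPM in old females and 161, 175 and 133 CPM in young females (-2.72 ± 0.24, adjusted p = 1.11e-06). Acads had 55.4, 61.4 and 57.3 CPM in old males and 160.1, 171 and 173 CPM in young males, and 92.1, 76.5 and 83.6 CPM in old females and 88.1, 92.3 and 77.9 CPM in young females, so that the male change of -1.53 ± 0.084 stood beside -0.035 ± 0.082 in females (adjusted p = 0.853). Tkfc, a kinase of fructose metabolism (-2.52 ± 0.22, adjusted p = 9.89e-07), and Slc25a10, the mitochondrial dicarboxylate carrier (-2.0 ± 0.18, adjusted p = 1.07e-06), also had opposite signs. Scrn2 (-1.22 ± 0.095, adjusted p = 2.12e-07) and Bsdc1 (-1.34 ± 0.12, adjusted p = 1.07e-06) completed the group. Without old males 2 and 3 and young male 1 the difference was called for 2334 genes, and without the heart-transcript libraries for 1847.

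**Figure D5:**
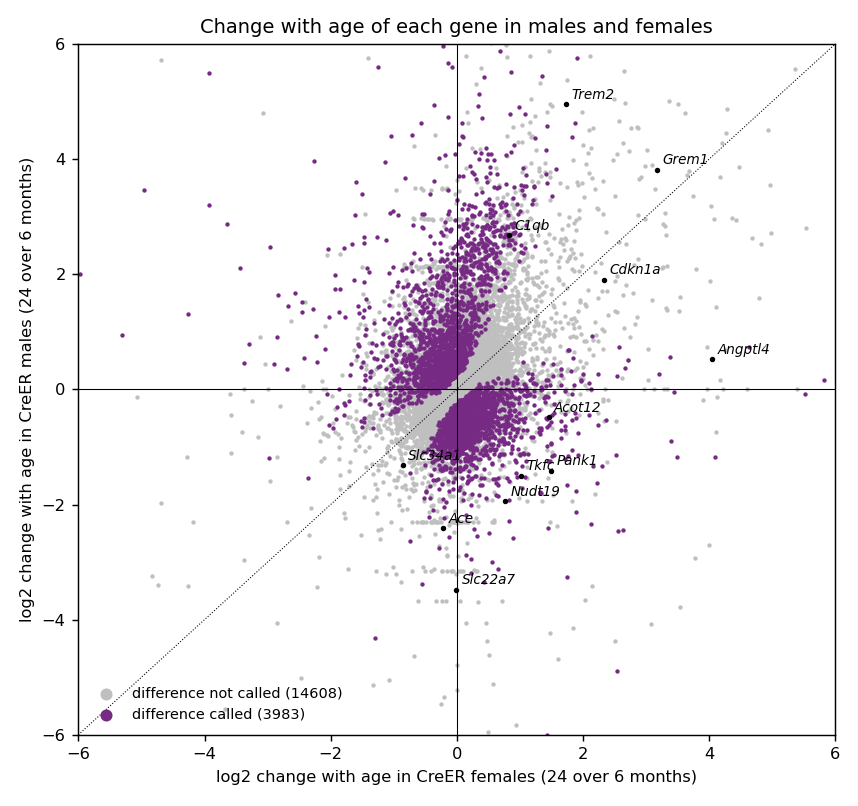
Log2 change with age (24 over 6 months) of each gene tested in CreER males (vertical axis) against CreER females (horizontal axis), in purple where the difference between sexes was called (3983) and in grey where it was not (14608). The dotted line marks equal change, 100 genes lie beyond the axes at 6, and Pank1, Tkfc, Nudt19 and Acot12 lie to the lower right, higher in old females and lower in old males.

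Ageing in CreER kidneys differed from ageing in nmrHAS2 kidneys in 437 genes (2.35%), 147 higher (0.791%) and 290 lower (1.56%) in CreER, and this comparison shares no library between its sides. In nmrHAS2 kidneys 4324 genes changed with age (23.3%). Of the 5622 CreER genes 4844 had the same sign in nmrHAS2 (86.2%), and 2315 were called in the same direction, 41.2% of the CreER and 53.5% of the nmrHAS2 calls. Scrn2 had the smallest p: its change was -0.37 ± 0.047 in CreER and 0.23 ± 0.047 in nmrHAS2, a difference of -0.60 ± 0.067 (adjusted p = 0.000363). Tubb4b, a tubulin, had log2 changes of 0.10 ± 0.068 in CreER and 0.68 ± 0.068 in nmrHAS2 (-0.58 ± 0.10, adjusted p = 0.0123). Glrx5, of iron-sulfur cluster assembly, differed by -0.50 ± 0.076 (adjusted p = 0.0123), Ecsit, an assembly factor of complex I, by -0.44 ± 0.07 (adjusted p = 0.0123), and Plpp2, a lipid phosphatase, by -0.49 ± 0.079 (adjusted p = 0.0123). Among the lists, the difference was called for 4 of 19 macrophage markers and 3 of 19 complement genes and 1 of 24 T and NK cell markers, all higher in CreER, against 0.791% of all genes. The macrophage and complement lists share 4 genes, of which C1qc is counted in both. Calls lower in CreER included 3 of 42 oxidative phosphorylation genes, and 2 each of 22 cholesterol synthesis, 14 renin-angiotensin and 23 antioxidant genes, against 1.56% of all genes. The antigen presentation, inflammatory chemokine, interferon response, tubular injury and endothelial lists each had 1 call higher in CreER. The tubular injury, senescence, fatty acid oxidation, drug transporter, phosphate, stress response and sex-biased lists each had 1 call lower in CreER. Macrophage markers had a median change of 1.73 in CreER and 0.58 in nmrHAS2 kidneys, and T and NK cell markers one of 1.47 in CreER and 0.58 in nmrHAS2 kidneys. C1qc rose by 1.82 ± 0.19 in CreER and by 0.71 ± 0.18 in nmrHAS2 (1.10 ± 0.26, adjusted p = 0.0299), and Mrc1 had log2 changes of 1.74 ± 0.19 in CreER and 0.35 ± 0.18 in nmrHAS2 (1.38 ± 0.26, adjusted p = 0.013). Kl changed by -0.71 ± 0.072 in CreER and -0.70 ± 0.072 in nmrHAS2, with a difference of -0.0005 ± 0.10 (adjusted p = 1). The count of 437 depended on the libraries: it was 180 without young female 2 and 202 without young female 1, both with heart transcripts, 261 without young male 2 and 244 without old female 3, and 1192 with DESeq2. Without old male 3 it was 546, of which 294 were higher in CreER. The nmrHAS2 side carried such transcripts too. Heart genes summed to 82.9 and 178 CPM in young nmrHAS2 females 1 and 2, and to 21.1 and 21.7 CPM in young nmrHAS2 males 2 and 3. Adrenal genes summed to 67.1 CPM in old nmrHAS2 male 2. Leaving out nmrHAS2 libraries was not tested.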

How the data were processed

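RNA of frozen, pulverised kidney was extracted with Trizol, DNase I and RNeasy columns, per the labels' protocols. The deposited table holds estimated counts per gene from Salmon 1.4.0 after trimming with Trim Galore 0.6.5, tools named in the submitters' processing notes, for 40946 genes; genome build and annotation: not given in the sources used here. The authors' expected counts were rounded to whole numbers. All 24 kidney libraries entered 1 fit (R 4.3.3, edgeR 4.0.16, TMM scaling, filterByExpr, 8 group means), in which 18591 genes were tested with the quasi-likelihood F test and Benjamini-Hochberg adjustment, at an adjusted p of 0.05. Ageing in CreER kidneys is the mean of the female and male contrasts, and the sex difference is male minus female. The standard error is the size of the log2 change over the root of the F statistic.

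The 46 gene lists and their members were chosen with earlier results of these data known. Genes named were the 12 largest rises and 10 largest falls among genes called, changed the same way in both sexes, with a mean of at least 2 CPM over the 12 CreER kidneys and no group at 0 throughout, the 3 members of each list with the smallest p, and the 8 sex and 5 genotype differences with the smallest p; other genes are said to be chosen after their values were seen, or stand as members of a list. A few genes that the rule names are not reported here. Muscle, adrenal and heart libraries were left out in alternatives added after seeing the data. Further alternatives were RLE size factors, no filter on low counts, DESeq2 1.42.0, only CreER libraries, a replicate block, and each CreER library left out in turn. Replicate numbers did not pair the libraries: the deviations of old and young libraries with the same number correlated at -0.031 to 0.167, and 1 of 6 pairs was above 0.1. No pair of the 24 replicate pairs had identical values. Promoters were matched by symbol to RefSeq on GRCm38.p6. Liver, muscle, adipose tissue, intestine and spleen were not analysed here.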

Additional observations from a re-analysis of the deposited data

Results flagged for a closer look

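The change with age differed between CreER males and CreER females in 3983 genes by the test of the difference itself. The 8 with the smallest p had male minus female log2 differences of -1.94 for Acot12, -1.22 for Scrn2, -1.5 for Acads, -2.91 for Pank1, -2.52 for Tkfc, -1.34 for Bsdc1, -2.0 for Slc25a10 and -2.72 for Nudt19. Tkfc, which acts in fructose metabolism, had 88.2, 101 and 80.6 CPM in old males and 248, 288 and 225 CPM in young males, and 119.8, 122 and 149.9 CPM in old females and 67.0, 68.1 and 57.7 CPM in young females. Slc25a10 had 133, 155 and 146 CPM in old males and 295, 276 and 315 CPM in young males, and 207, 177 and 232 CPM in old females and 108, 113 and 93.5 CPM in young females. In both genes the sexes were closer at 24 than at 6 months, and the sexes also differ in library kind, which cannot be told apart from sex.

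The change with age differed between CreER and nmrHAS2 kidneys in 437 genes by the test of the difference. The 5 with the smallest p had CreER minus nmrHAS2 log2 differences of -0.60 for Scrn2, -0.50 for Glrx5, -0.44 for Ecsit, -0.49 for Plpp2 and -0.58 for Tubb4b. Scrn2 stood in both groups: its level was 51.2, 49.98 and 48.0 CPM in old females and 43.1, 44.1 and 39.8 CPM in old males, against 42.7, 44.0 and 39.6 CPM in young females and 84.6, 81.2 and 85.1 CPM in young males of the CreER genotype.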

How the results depend on the processing

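Named genes were followed under the alternative settings other than those added after seeing the data, which left out several libraries at once and are not counted here. Of 2441 values, 2403 kept their direction and their side of the threshold, 37 kept the direction but not the call, and 1 turned: Actc1 was 0.67 without young male 2, and between -5.50 and 0.67 with each library left out in turn. Of 144 named results, 134 kept their call in every such setting, and the 10 that did not were Clic5, Star, Myh11, Umod, Emcn, Mylpf, Myh6, Myl2, Tnnt2 and Actc1. Genes that aged in CreER kidneys numbered 5727 with RLE size factors (43.6% higher, against 48.9%), 5958 with DESeq2 (43.3% higher), 5016 without a filter and 5073 with only CreER libraries. Leaving out 1 library at a time gave 4785 to 5596 genes for both sexes, 1140 to 2207 for females, 5396 to 6490 for males, 3028 to 3841 for the sex difference and 180 to 546 for the genotype difference. The sex difference had 48.8% of its calls higher in males, and 37.8% without young male 1. The genotype difference was called for 282 genes without a filter and for 1192 with DESeq2, and the cause was not tested. Chosen after seeing the data, leaving out old males 2 and 3 and young male 1 gave 3597 ageing genes and 2334 sex differences, and leaving out the 3 libraries with heart transcripts gave 2616 and 1847, with 3 fewer libraries in each fit. With the replicate block, counts were 5519 for both sexes, 1853 for females, 6279 for males, 3888 for the sex difference and 336 for the genotype difference; 2 of 6 old libraries correlated best with the young library of their own number, so the numbers are not taken as pairs.

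Among CreER kidneys, male libraries had at most 27315233 counts and female ones at least 32971397, so that low genes rest on fewer reads in males. Among nmrHAS2 kidneys the totals of the sexes overlapped, with 24386073 in young female 3 and 28848956 in young male 3. Estimated counts carry the mapping error of the quantifier for close copies.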

Other observations

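Erythroid genes moved in opposite directions in the sexes. Hbb-bs, an adult beta globin whose reads can be shared with its twin Hbb-bt, had 18.1, 76.3 and 12.3 CPM in old females and 1739, 1810.1 and 2671 CPM in old males, against 159, 296 and 129 CPM in young females and 1379, 333 and 465 CPM in young males. It was lower in old females (-2.45 ± 0.59, adjusted p = 0.0101) and higher in old males (1.51 ± 0.57, adjusted p = 0.0439), and over both sexes the change was -0.47 ± 0.39 (adjusted p = 0.405).

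Cela1, a serine protease known from the pancreas, was the sole pancreatic acinar gene abundant enough to be tested. It had 27.9, 38.0 and 26 CPM in old females and 71.4, 74.2 and 59.6 CPM in old males, against 59.7, 64.6 and 55.7 CPM in young females and 80.9, 72.4 and 76.6 CPM in young males. The change was -0.97 ± 0.13 in females (adjusted p = 6.26e-05) and -0.16 ± 0.13 in males (adjusted p = 0.34), a difference of 0.81 ± 0.18 (adjusted p = 0.00314).

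Adipocyte genes summed to 399.6 to 645 CPM in old females and 425.8 to 1075 CPM in old males, against 356.9 to 1082 CPM in young females and 126.7 to 542.3 CPM in young males. The group ranges overlapped, and Fabp4, a fatty acid binding protein, had a log2 change of 0.13 ± 0.32 (adjusted p = 0.807). Urothelial genes ranged from 10.9 to 57.3 CPM over the 12 libraries, with a log2 change of Upk1b of 0.52 ± 0.53 (adjusted p = 0.499). Among mast cell genes Kit had a log2 change of 0.064 ± 0.16 (adjusted p = 0.803) and Ms4a2, the beta chain of the IgE receptor, one of 0.39 ± 0.24 (adjusted p = 0.236).

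Mmp8, the neutrophil collagenase, rose (adjusted p = 0.00104) at low levels, with 0.315 ± 0.250 CPM in old and 0.0129 ± 0.0207 CPM in young kidneys (SD, n = 6 each). Siglech, of plasmacytoid dendritic cells, rose by 1.75 ± 0.40 (adjusted p = 0.0025), with 0.520 ± 0.223 CPM in old and 0.165 ± 0.119 CPM in young kidneys (SD, n = 6 each).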
